A study of Mus musculus with 44 samples.

Results

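The response of wild-type (WT) macrophages to interferon beta (IFNβ) was measured by RNA-seq in 4 of the 44 libraries of the series, 2 from cells given IFNβ for 6 h and 2 from cells given vehicle for 6 h. No gene was selected. All 24940 genes of the count table were considered, and 13407 had enough counts to be tested. The cells were bone marrow-derived macrophages (BMDMs), which are grown in culture from mouse marrow precursors. Both groups came from C57Bl6 mice that carried the NCoR flox/flox alleles without Cre, so the corepressor NCoR was intact. The study set them beside NCoR knockout (NKO) cells, which add LysMCre to the same alleles and so delete Ncor1 under a myeloid promoter, and beside cells given other ligands, of which poly I:C (a stand-in for double-stranded RNA) and IL4 for 6 h are used here. The 8 further libraries drawn on were NKO vehicle, NKO IFNβ, WT poly I:C and WT IL4, each with 2 replicates. The spread between libraries was also estimated from NKO poly I:C, NKO IL4, and KLA (a TLR4 agonist) and RANKL groups of both genotypes. KLA was given for 6 h and RANKL, an osteoclast factor, for 12 h. Labels of the KLA and RANKL libraries carry other dates, and those of RANKL name osteoclasts. The labels do not say that replicates came from separate animals or cultures, so p-values measure the spread between libraries, which may be technical. No dose is given in the labels.

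IFNβ binds the receptor made of IFNAR1 and IFNAR2 and activates the kinases JAK1 and TYK2. These phosphorylate STAT proteins, which join IRF9 in the complex ISGF3 and bind the interferon-stimulated response element (ISRE) in promoters of interferon-stimulated genes. Pairs of STAT proteins also bind the GAS element. The products of these genes sense viral nucleic acid, block viral replication, present antigen and damp the signal again, and macrophages are among the cells that make and answer type I interferon.

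Gene counts per library were 12.1 and 12.3 for vehicle and 13.8 and 12.3 for IFNβ in units of 1000000 counts, within a range of 8.32 to 16.8 over the 24 libraries of the table. At these depths 3 counts corresponded to about 0.206 CPM (counts scaled to a TMM-adjusted library total of 1000000) in the first vehicle library, and a gene at or under 3 counts was treated as not detectable. Macrophage genes were high in the 4 libraries. Csf1r, the receptor for M-CSF, stood at 2573 and 2785 CPM with vehicle and at 2423 and 2405 CPM with IFNβ. The summed level of the 7 erythroid markers was 0 in each, and those of the 8 T and NK cell, 6 B cell, 7 mast cell and 10 neutrophil markers lay between 0.206 and 8.05 CPM. The plasmacytoid dendritic cell markers summed to between 118 and 129 CPM and the osteoclast markers to 1108 and 924 CPM with vehicle and 829 and 885 CPM with IFNβ, with none called. Among the markers of other cells, Kit of the mast cell list and Clec9a of the dendritic cell list were called higher with IFNβ at log2 changes of 1.25 and 1.00, and no other marker of these lists was called. Both markers stood at 2.06 CPM or less. The 7 stromal markers summed to between 92.2 and 102 CPM, with Col1a1 at 33.8 and 33.3 CPM with vehicle and 37.2 and 39.1 CPM with IFNβ. Ncor1 was present at 162, 169, 179 and 170 CPM in the same order. In bulk RNA, fewer cells of a type and less RNA per cell cannot be told apart.

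The second vehicle library stood apart before any comparison was made. The counts of the WT vehicle replicates differed by 6.16 times the sampling noise (chi-square per degree of freedom over genes), the largest value among the 12 groups, while the IFNβ replicates differed by 1.94 times. Of the 549 genes called higher with IFNβ, 406 (74.0%) had more CPM in vehicle replicate 2 than in replicate 1, against 49.2% of all genes tested. The median ratio of replicate 2 to replicate 1 over these 549 genes was 1.16, and on the log2 scale it was 0.22 against -0.01 over all genes tested. Isg15, a ubiquitin-like modifier, stood at 3.10 and 11.7 CPM in vehicle replicates 1 and 2. Inflammatory genes differed in the same direction, with the acute phase gene Saa3 at 0.89 and 13.6 CPM. Results below are therefore given with both vehicle libraries, and several of them also against replicate 1 alone. The named genes whose call changed without it are listed in the closing section. The part of this library in a result was not tested beyond those values.

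IFNβ raised many more genes than it lowered. A gene was called when edgeR's quasi-likelihood test gave an adjusted p under 0.05 (Benjamini-Hochberg over the 13407 genes) and the fold change was above 1.5. By this rule 549 genes (4.09% of those tested) were higher and 318 (2.37%) lower. The rises were also larger, with 301 genes higher by over 2-fold, 124 by over 4-fold and 22 by over 16-fold, against 85, 11 and 1 genes lower. In all 549 genes both IFNβ libraries lay above both vehicle libraries, and in 315 of the 318 they lay below. Together the 549 genes took up 31117 and 36955 CPM with vehicle and 73387 and 77386 CPM with IFNβ. Against vehicle replicate 1 alone, 622 genes (4.64%) were higher and 357 (2.66%) lower. Of the 549 and 318 genes, 487 and 239 were among these, and no gene was called one way with replicate 2 and the other way without it. The spread was estimated over all 12 groups of the table. With it estimated from the 4 WT libraries alone, 459 genes were higher and 251 lower. Of the 153 genes named in this text, 26 then lost their call at about the same fold changes. Among them were Irf7, Isg15, Mx1, Ifit1, Ifit2, Ifit3, Gbp2, Oas3, Rsad2, Zbp1, Fcgr1, Nlrc5 and Stat2. Their edgeR adjusted p ran from 0.0585 (Mx1) to 0.132 (Stat2), and that of Cxcl10 was 0.239. In simulated data, 2-fold and 4-fold changes in 2 libraries against 2 were recovered in 89 of 100 and 100 of 100 genes. These data took their spread from the fitted model, held both vehicle libraries to a common mean and changed only genes with ample counts. The recovery therefore does not cover low genes or the gap between the vehicle libraries here.

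**Figure D1:**
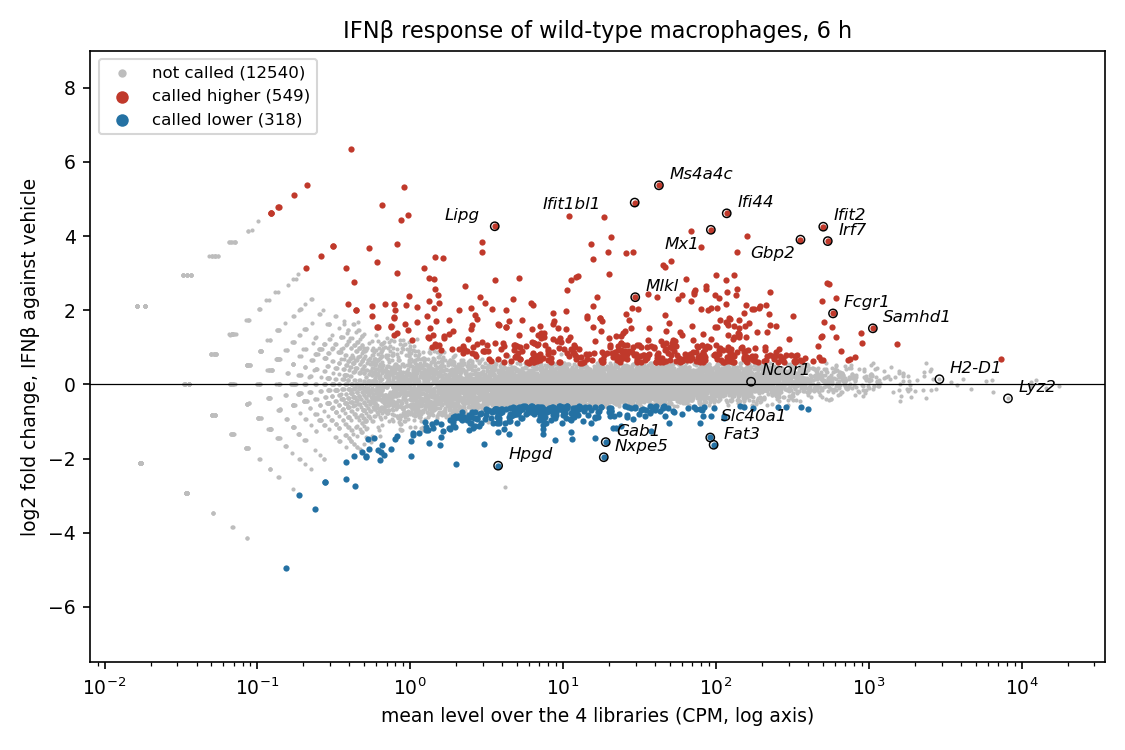
Log2 fold change of IFNβ against vehicle in WT BMDMs (vertical axis) by mean level over the 4 libraries in CPM (horizontal log axis), 1 point per gene tested, with called genes in colour. The 549 genes called higher reach further from 0 than the 318 called lower, with Ms4a4c at 5.37 and Hpgd at -2.19 the extremes among genes of at least 5 CPM in either group, while Ncor1 lies at 0.07.

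Promoters of the strongly raised genes often held an ISRE. The motif was searched as GAAA, any 2 bases and GAAA again, on either strand, in the 300 bases from 250 before to 50 after each gene's start (RefSeq sequences, build GRCm38.p6), which were at hand for 10392 of the genes tested. It was present at 32.6% of the 92 genes raised over 4-fold, 21.3% of the 127 raised 2 to 4-fold and 9.68% of the 186 raised 1.5 to 2-fold. The share was 4.02% over all 10392 genes and 1.6% over the 250 genes called lower. The GAS motif, searched as TTCNNNGAA, which reads the same on either strand, was at 11.6% of the 405 raised genes with a promoter and at 8.29% of all 10392, and 16 of the 405 held both motifs. A match is a run of letters and not a measured binding site, and a gene without a match may hold the element elsewhere. The 120 bases from -160 to -41 of 6 raised genes are shown, chosen because each holds 1 or more matches there, with the letters of each match in capitals and overlapping matches run together.
Isg15 (chr4:156200859-156200978, minus strand): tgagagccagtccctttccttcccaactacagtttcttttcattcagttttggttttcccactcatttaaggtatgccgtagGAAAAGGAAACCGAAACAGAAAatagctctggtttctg
Ifit3 (chr19:34583369-34583488, plus strand): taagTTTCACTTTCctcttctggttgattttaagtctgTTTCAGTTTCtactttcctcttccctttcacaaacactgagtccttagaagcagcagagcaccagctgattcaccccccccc
Ifit1 (chr19:34640729-34640848, plus strand): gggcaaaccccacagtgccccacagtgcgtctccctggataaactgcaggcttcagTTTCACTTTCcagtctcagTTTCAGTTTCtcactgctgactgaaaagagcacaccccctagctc
Rsad2 (chr12:26456493-26456612, minus strand): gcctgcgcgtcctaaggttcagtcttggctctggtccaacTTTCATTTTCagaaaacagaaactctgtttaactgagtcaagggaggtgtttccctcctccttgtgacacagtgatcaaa
Oas3 (chr5:120777700-120777819, minus strand): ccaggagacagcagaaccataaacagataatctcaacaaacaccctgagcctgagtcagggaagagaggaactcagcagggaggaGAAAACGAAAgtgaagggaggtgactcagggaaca
Gbp2 (chr3:142620503-142620622, plus strand): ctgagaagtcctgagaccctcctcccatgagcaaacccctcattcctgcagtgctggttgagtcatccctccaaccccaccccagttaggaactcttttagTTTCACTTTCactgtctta

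Genes of the receptor and its signalling chain had a median log2 change of 0.27 over 8 tested, beside -0.000182 over all genes tested. Over all genes, 4.09% were called higher and 2.37% lower, the shares to set beside each list below. Stat2, a subunit of ISGF3, rose from 56.4 and 102 CPM to 229 and 269 CPM, a log2 change of 1.66 ± 0.19 (SE here and below). Irf9, the DNA-binding subunit of ISGF3, stood at 62.1 and 71.8 CPM with vehicle and at 91.8 and 89.8 CPM with IFNβ, a difference below the fold threshold at 0.44 ± 0.07. Ifnar1 was measured at 203 and 229 CPM with vehicle and 189 and 183 CPM with IFNβ, and Jak1 at 313 and 317 CPM against 315 and 326 CPM, so that neither was called. Against vehicle replicate 1 alone the log2 change of Stat2 was 2.14.

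Of the 7 interferon regulatory factors tested, 1 was called higher and none lower, beside 4.09% and 2.37% of all genes. Irf7, which amplifies the making of type I interferon, rose from 40.9 and 97.6 CPM to 992 and 1029 CPM, a log2 change of 3.87 ± 0.27 with an edgeR adjusted p of 1.19e-07. Irf1, a factor that many inflammatory stimuli raise, stood at 80.8 and 110 CPM with vehicle and 101 and 97.0 CPM with IFNβ. Irf5 and Irf8 changed by 0.42 and 0.27 on the log2 scale, under the fold threshold. Ifnb1 itself had no count in either vehicle library and at most 1 count in an IFNβ library, so no interferon beta transcript was detectable at this depth.

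Negative regulators showed 1 call among 11, a rise, beside 4.09% of all genes higher and 2.37% lower. Usp18, which removes ISG15 from proteins and blocks the receptor, rose from 7.36 and 14.4 CPM to 43.0 and 48.7 CPM (log2 change 2.07 ± 0.18). Socs1 and Socs3, inhibitors of JAK kinases, were low throughout. Socs1 was measured at 1.65 and 2.46 CPM with vehicle and 0.84 and 1.84 CPM with IFNβ, although its promoter holds the ISRE letters at -83 and -77. Socs3 was measured at 1.65 and 7.05 CPM against 2.46 and 1.84 CPM.

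Of 17 sensors of foreign nucleic acid and their adaptors tested, 11 were higher and none lower, with a median log2 change of 1.06. Zbp1, a sensor of Z-form nucleic acid, went from 11.7 and 31.3 CPM to 238 and 271 CPM (3.57 ± 0.23). The RNA helicases Ddx58 (RIG-I), Ifih1 (MDA5) and Dhx58 (LGP2) rose by 1.58, 1.66 and 2.06 on the log2 scale, and the DNA-sensing receptor Tlr9 by 2.01. Mavs and Tmem173 (STING), the adaptors of the RNA and DNA pathways, changed by 0.03 and 0.08, and the DNA sensor Aim2 by 0.02. None of these last was called.

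The antiviral effectors were, of the lists of interferon genes, the one with the largest share of members raised. Of 70 listed genes 69 were tested, 58 were called higher and 1 lower, a share far above the 4.09% called higher over all genes, and the median log2 change was 1.59. Their summed level went from 5742 and 7511 CPM to 17325 and 18774 CPM. Ifit2, which binds viral RNA and restrains its translation, rose from 23.2 and 77.2 CPM to 857 and 1059 CPM (log2 change 4.25 ± 0.35). Isg15 rose from 3.10 and 11.7 CPM to 128 and 132 CPM (4.13 ± 0.26). Mx1, a GTPase that acts on viral capsids, rose from 4.75 and 14.7 CPM to 163 and 188 CPM (4.17 ± 0.25). For each of these 3 genes the second vehicle library lay above the first by a larger ratio than that between the IFNβ libraries, and still far below both of them.

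Other effectors covered a wide span. Ifit1bl1, Ifi44 and Isg20 had log2 changes of 4.90, 4.61 and 4.52, and Ifit3 and Ifit3b of 4.01 and 3.98. Oas3, which makes the activator of RNase L, rose from 95.5 and 183 CPM to 909 and 961 CPM (2.75 ± 0.20). Rsad2 (viperin) rose from 29.0 and 50.6 CPM to 209 and 262 CPM (2.56 ± 0.19). Samhd1, which degrades the nucleotides that viral DNA synthesis needs, went from 505 and 600 CPM to 1529 and 1624 CPM (1.51 ± 0.05), Adar by 0.86 and Eif2ak2 (PKR) by 1.06. Ifi27 was the member that fell, from 48.2 and 48.4 CPM to 31.7 and 31.7 CPM (fell by 0.61 on the log2 scale, edgeR adjusted p 3.24e-09). Per kilobase of transcript, Ifitm3 was among the most abundant effectors, with 374 CPM per kb at rest and 1202 with IFNβ, against 13.2 and 252 for Ifit2. Ifit3 and Ifit3b, the Gbp genes, the Oas genes and the H2 genes have near-identical relatives, between which the counting could have split reads.

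**Figure D2:**
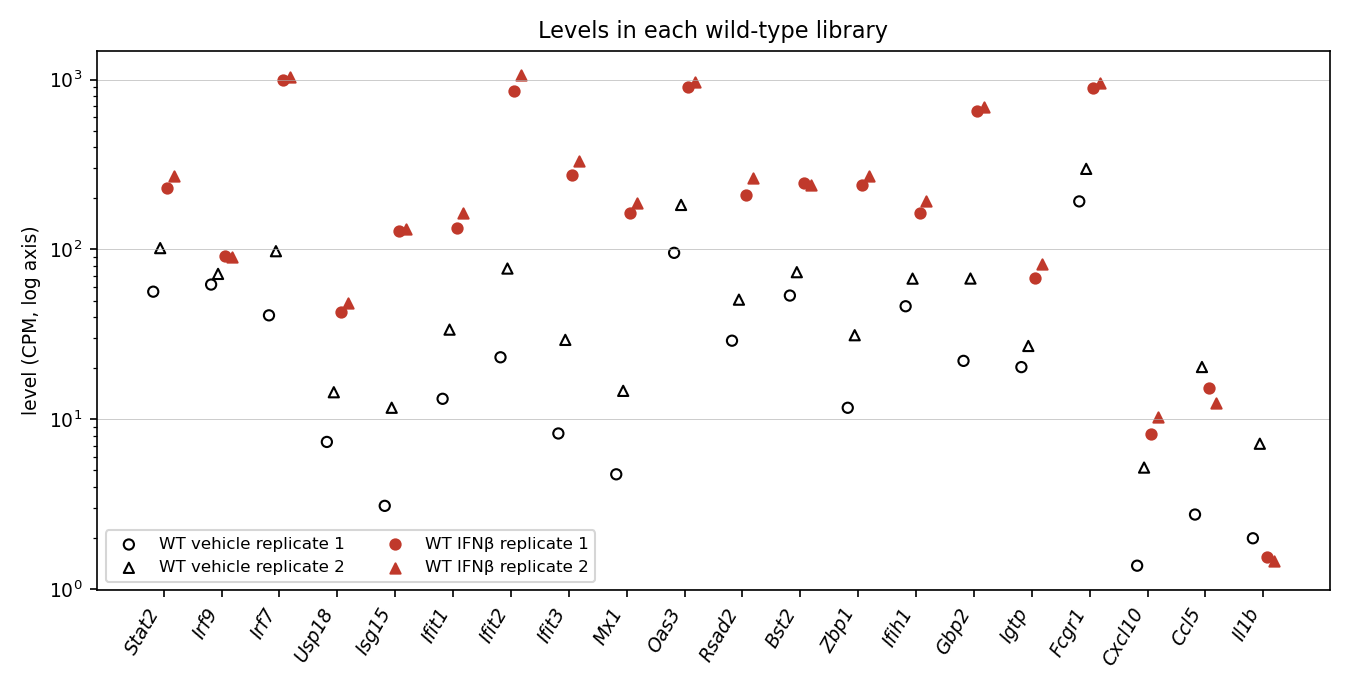
Level in CPM (vertical log axis) of 20 genes in each of the 4 WT libraries, with vehicle as open and IFNβ as filled symbols, and replicate 1 as circles and replicate 2 as triangles. The IFNβ replicates lie close together, vehicle replicate 2 lies above replicate 1, and for Ccl5 and Il1b vehicle replicate 2 lies above both IFNβ libraries.

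Interferon-inducible GTPases, which attack the vacuoles of intracellular microbes, rose in 16 of 21 tested genes and fell in none, with a median log2 change of 2.03. Gbp2 rose from 22.1 and 67.4 CPM to 654 and 687 CPM (3.90 ± 0.30, edgeR adjusted p 2.67e-07). Gbp3 and Gbp5 rose by 3.70 and 3.53, and the immunity-related GTPases Igtp and Irgm1 by 1.66 and 1.57. Gvin1 was higher by 1.79, but its counts were the same in every library as those of Gm4070, so these are 1 measurement. The group was also the one in which vehicle replicate 2 lay furthest above replicate 1 among the lists of interferon genes, by a median of 0.90 on the log2 scale. Against replicate 1 alone the median change was 2.92, and 16 genes were called higher again.

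Genes of antigen presentation through MHC class I rose in part. Of 23 genes tested 14 were higher and none lower, and the median log2 change was 0.94. Nlrc5, the transactivator of class I genes, rose from 34.3 and 63.8 CPM to 159 and 170 CPM (1.74 ± 0.17). The immunoproteasome subunits Psmb9, Psmb10 and Psmb8 rose by 1.42, 1.40 and 1.27, the peptide transporter genes Tap1 and Tap2 by 1.34 and 1.06, and the nonclassical H2-T22 and H2-T23 by 1.54 and 1.23. The classical H2-D1 was measured at 2693 and 2829 CPM with vehicle and 3091 and 2991 CPM with IFNβ (0.14 ± 0.05). H2-K1 and B2m each changed by 0.37, under the fold threshold, although the adjusted p of both was under 0.05. No gene of the MHC class II pathway was called among 13 tested with both vehicle libraries, beside 4.09% of all genes higher and 2.37% lower. H2-DMa, at 0.35, was called higher against replicate 1 alone (0.59). Cd74, the invariant chain of class II, stood at 194 and 293 CPM with vehicle and 234 and 191 CPM with IFNβ. The transactivator Ciita stood at 6.26 and 8.69 against 8.94 and 8.45 CPM.

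**Figure D3:**
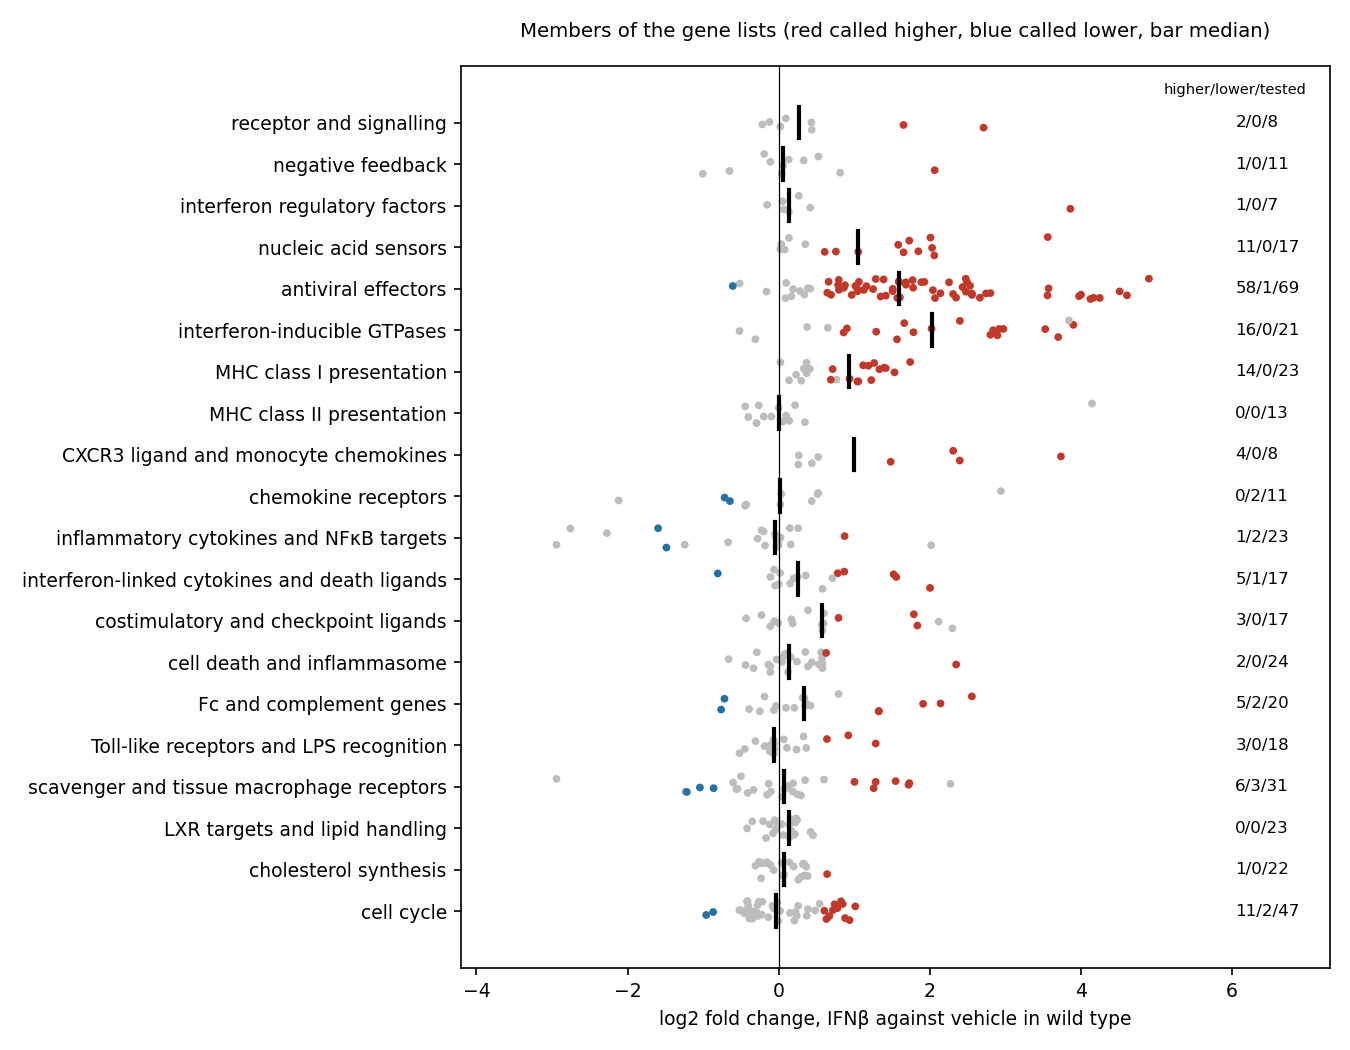
Log2 fold change of IFNβ against vehicle (horizontal axis) of every tested member of 20 gene lists (rows), with the median as a bar, called members in colour and the counts of members higher, lower and tested at the right. Antiviral effectors (58 of 69) and interferon-inducible GTPases (16 of 21) lie mostly to the right, while the LXR, MHC class II and inflammatory lists centre near 0.

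Of 8 genes for CXCR3 ligands and monocyte attractants, 4 were called higher, all from low levels, and the median log2 change was 1.01, or 2.80 against replicate 1 alone. Of 17 other chemokines tested, Ccl4 was called higher and none lower, beside 4.09% and 2.37% of all genes. Cxcl10 was measured at 1.38 and 5.20 CPM with vehicle and 8.23 and 10.4 CPM with IFNβ (1.49 ± 0.39, edgeR adjusted p 0.0123), and Cxcl9 at 0.48 and 2.67 against 7.97 and 7.78 CPM (2.31 ± 0.45), and against replicate 1 alone these changes were 2.74 and 4.00. Ccl8 went from 0.34 and 0.62 CPM to 2.91 and 2.20 CPM. Ccl12 had 0 and 1 counts with vehicle and 8 and 9 with IFNβ, which is at least 2.86-fold higher against a floor of 3 counts per library. The call for Ccl5, which attracts T cells and monocytes, was set by 1 library. It stood at 2.75 and 20.3 CPM with vehicle and at 15.2 and 12.5 CPM with IFNβ, so that the groups overlapped and the log2 change was 0.27 ± 0.47, whereas against replicate 1 alone it was 2.33 with an edgeR adjusted p of 3.11e-19, and against replicate 2 alone it was -0.55 with an adjusted p of 0.000132. Among the 11 chemokine receptors tested, Cx3cr1 and Ccr3 were called lower with both vehicle libraries, beside 2.37% of all genes. Neither was called against replicate 1 alone, at log2 changes of -0.51 and -0.57.

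Inflammatory cytokines and targets of NFκB did not move as a group. Of 23 tested, 1 was higher and 2 were lower, where 4.09% and 2.37% of all genes were, and the median log2 change was -0.05. Against replicate 1 alone 1 was higher and none lower. Tnf rose from 14.5 and 16.3 CPM to 28.3 and 28.2 CPM (0.88 ± 0.10). Nfkbia, the inhibitor that NFκB itself induces, stood at 46.8 and 59.7 CPM with vehicle and 53.5 and 50.7 CPM with IFNβ. Il1b was called lower, from 1.99 and 7.18 CPM to 1.55 and 1.47 CPM (fell by 1.60 on the log2 scale), but against replicate 1 alone the change was -0.40 with an edgeR adjusted p of 0.471. Lcn2, at 1.03 CPM or less in each library, likewise lost its call. Nos2, Il6 and Il12b were at or near the floor, with at most 6 counts in any of the 4 libraries.

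Other immune genes moved in small numbers. Among 17 interferon-linked cytokines and death ligands, 5 were higher and 1 lower, beside 4.09% and 2.37% of all genes. Tnfsf10 (TRAIL) rose from 0.89 and 2.46 CPM to 6.48 and 7.12 CPM (2.01 ± 0.32), and Il18bp, which neutralises IL18, from 11.8 and 16.7 CPM to 42.3 and 39.7 CPM (1.52 ± 0.10), while the death receptor Fas fell from 3.92 and 3.42 CPM to 2.46 and 1.69 CPM. Il15 was measured at 20.8 and 24.3 CPM against 21.6 and 24.2 CPM. Among 17 costimulatory and checkpoint ligands, Cd40, Cd86 and Cd47 (a "do not eat me" signal) rose by 1.84, 1.79 and 0.79 on the log2 scale, and Cd274 (PD-L1) stayed under the fold threshold at 0.57 ± 0.07. Against replicate 1 alone 6 of these were called higher, with Cd274 (0.66), Icosl (0.63) and Tnfsf9 (1.14) added. Among 24 genes of cell death and the inflammasome, 2 were higher and none lower, beside 4.09% and 2.37% of all genes. Mlkl, the executioner of necroptosis, rose from 9.84 and 9.58 CPM to 48.3 and 51.0 CPM (2.35 ± 0.10), and the pore-forming Gsdmd by 0.63. Against replicate 1 alone 6 were called higher, with Casp1 (0.68), Casp4 (0.94), Bid (0.68) and Bak1 (0.62) added.

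Fc receptors and the complement genes moved in both directions, with 5 of 20 genes higher and 2 lower, beside 4.09% and 2.37% of all genes. The activating receptors Fcgr1 and Fcgr4 rose, Fcgr1 from 192 and 298 CPM to 893 and 954 CPM (1.91 ± 0.13) and Fcgr4 from 54.3 and 61.4 CPM to 252 and 260 CPM (2.15 ± 0.07). The inhibitory receptor Fcgr2b fell from 47.1 and 46.7 CPM to 28.1 and 27.2 CPM (fell by 0.76 on the log2 scale, edgeR adjusted p 2.20e-12). Complement C3 stood at 32.4 and 105 CPM with vehicle and 122 and 117 CPM with IFNβ, so that it was called only against replicate 1 alone (1.88, beside 0.80 ± 0.33). Cfb was called higher at 1.33 (edgeR adjusted p 0.0405) and had a change of 3.55 against replicate 1 alone and 0.49 against replicate 2 alone, and its call was lost with DESeq2 (adjusted p 0.0895) and without the filter on low counts (edgeR adjusted p 0.0587).

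Surface receptors of macrophages gave 6 genes higher and 3 lower of 31, beside 4.09% and 2.37% of all genes. Siglec1, a sialic acid receptor known as an interferon-induced marker, rose from 248 and 334 CPM to 841 and 863 CPM (1.55 ± 0.10), and Axl, which clears apoptotic cells, from 78.6 and 87.1 CPM to 199 and 205 CPM (1.29 ± 0.06). Mertk, of the same family, was measured at 144 and 142 CPM with vehicle and 97.3 and 96.8 CPM with IFNβ (-0.56 ± 0.08, under the fold threshold). The scavenger receptor Cd163 fell by 0.86, Gpr34 by 1.04 and the fungal lectin receptor Clec4n by 1.21. Of 18 Toll-like receptors and genes of LPS recognition, Cd180 and Ly86, which pair on the cell surface, rose by 1.29 and 0.92, and the adaptor Ticam1 (TRIF) by 0.64, while Tlr4 and Cd14 were not called. None of 23 LXR targets and lipid genes was called, where 4.09% of all genes were higher and 2.37% lower. The median log2 change of 22 genes of cholesterol synthesis was 0.07.

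Cell cycle genes rose in part. Of 47 tested, 11 were higher and 2 lower, beside 4.09% and 2.37% of all genes, with a median log2 change of -0.04. Those higher were the replicative helicase genes Mcm2, Mcm3, Mcm5, Mcm6 and Mcm7, the loading factors Cdt1 and Cdc6, the sliding clamp Pcna, and Ccne1, Hells and Uhrf1. Mcm2 rose from 16.3 and 21.6 CPM to 37.0 and 39.7 CPM (1.02 ± 0.10) and Pcna from 143 and 139 CPM to 222 and 216 CPM (0.63 ± 0.05). The 2 lower genes were Ccnb1, the cyclin of mitotic entry, and Cenpa, the centromeric histone, which went from 24.2 and 19.6 CPM to 13.9 and 9.99 CPM. Mki67 and Top2a were measured at log2 changes of -0.44 and -0.26 and were not called. The D cyclins that drive entry into the cycle rose, Ccnd1 from 113 and 136 CPM to 357 and 384 CPM (1.57 ± 0.06) and Ccnd2 by 1.75. Against replicate 1 alone, 9 cell cycle genes were higher and 6 lower, and Mcm7 and Uhrf1 were no longer called.

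Beyond the lists, 398 genes higher and 304 lower were on none of them. Of the 15 genes with the largest rise among those with a mean of at least 5 CPM in either group, Ms4a4c, a membrane protein of the MS4A family, led with 1.17 and 2.81 CPM at rest and 77.7 and 88.0 CPM with IFNβ (5.37 ± 0.22). Lipg, an endothelial type of lipase, rose from 0.28 and 0.41 CPM to 6.41 and 7.20 CPM (4.27 ± 0.31), and Hap1 from 0.55 and 0.21 CPM to 5.18 and 5.88 CPM. Ifi205 and Ifi213, of the HIN-200 family, rose by 4.54 and 3.78. The fold of the first 3 rests on few counts at rest.

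The falls were smaller, and no list had more than 3 genes called lower. Hpgd, which breaks down prostaglandins, fell from 6.53 and 5.82 CPM to 1.30 and 1.40 CPM (fell by 2.19 on the log2 scale, edgeR adjusted p 8.89e-09). Slc40a1 (ferroportin), the exporter of iron from the cell, fell from 144 and 124 CPM to 49.2 and 50.2 CPM (fell by 1.43 on the log2 scale). Gab1, a scaffold of receptor tyrosine kinase signalling, fell from 27.5 and 29.4 CPM to 10.5 and 8.74 CPM, and Fat3, an atypical cadherin, from 135 and 158 CPM to 49.5 and 44.9 CPM. In these 4 genes the groups were far apart and vehicle replicate 2 lay closer to replicate 1 than to either IFNβ library. Nxpe5, second by size at -1.96, was otherwise, with 13.8 and 45.1 CPM at rest and 7.64 and 7.42 CPM with IFNβ, and it fell by 0.87 against replicate 1 alone. Ppm1k, Mturn, St18, Adam22, Ier3, Prkar2b, Ptpdc1, Mctp1, Clec4n and Tfec made up the rest of the 15, with log2 changes from -1.50 to -1.20.

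**Figure D4:**
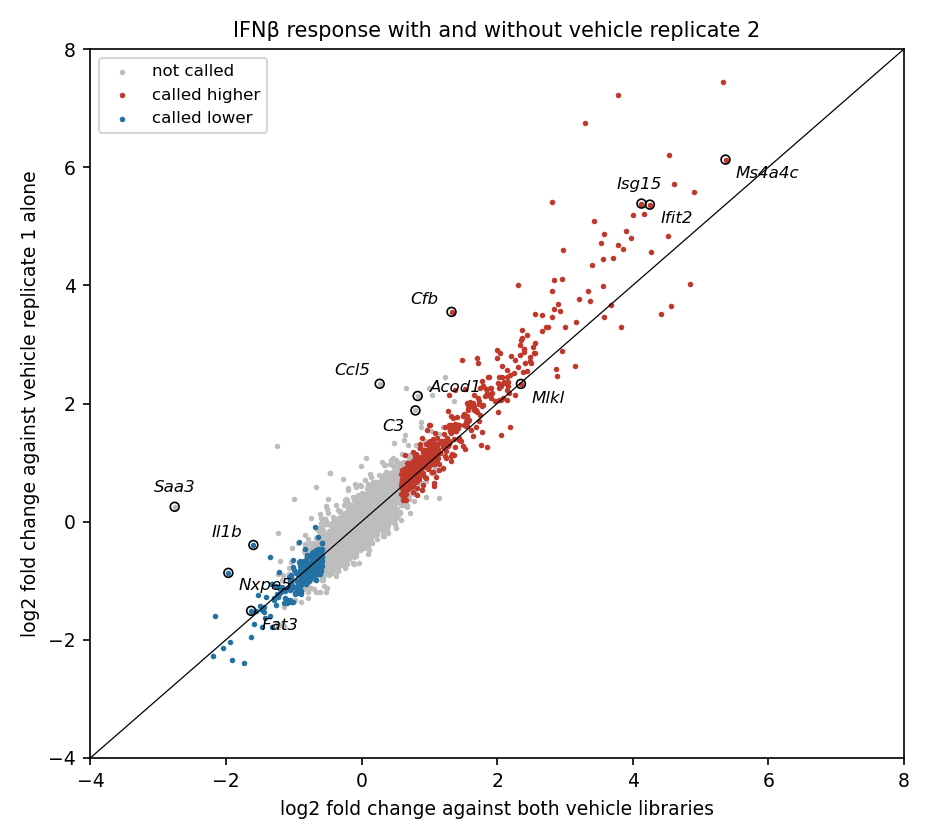
Log2 fold change of IFNβ against both vehicle libraries (horizontal axis) and against vehicle replicate 1 alone (vertical axis), 1 point per gene with a mean of at least 1 CPM in either group, coloured by the call with both libraries, with the line of equal values. Inflammatory genes such as Ccl5 (0.27 and 2.33) and Il1b (-1.60 and -0.40) lie above the line. So do interferon-stimulated genes such as Isg15 (4.13 and 5.39), while Fat3 and Mlkl lie close to it.

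Raised genes often lay side by side in the genome. Of the 549, 166 (30.2%) had a neighbour in the order of tested genes that was also called higher, while 6.65% of the other genes tested lay beside a gene called higher. Of the genes called lower 8.18% lay beside another called lower, against 4.61% of the other genes. There were 11 runs of 4 or more neighbouring genes all called higher, which held 48 genes. In mm10 coordinates as the table gives them, the Ifit run (Ifit2, Ifit3, Ifit1bl1 and Ifit3b) spanned chr19:34551088-34613401, with log2 changes of 3.98 to 4.90. The HIN-200 run (Ifi204, Mndal, Ifi211, Ifi203 and Ifi205) spanned chr1:173747294-174031755, with changes of 1.73 to 4.54. The class I processing run (Psmb9, Tap1, Psmb8 and Tap2) spanned chr17:34182099-34216321, with changes of 1.06 to 1.42. The run around Isg15, at chr4:156165290-156228542, also took in Agrn, AW011738, Perm1 and Plekhn1, at 0.69 or more. The runs were looked for after the calls had been seen, and although the study's methods describe strand-specific counting, the file headers name no strand option, so reads of overlapping genes may be shared.

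The same response was measured in NKO macrophages, in libraries that share none with the WT comparison. There 757 genes (5.65%) were higher with IFNβ and 366 (2.73%) lower. Of the 549 genes raised in WT cells, 468 were also called higher in NKO cells, which is 85.2% of the WT list and 61.8% of the NKO list, and 539 had a positive change. Of the 318 genes that fell, 137 were also called lower, 43.1% of the WT list and 37.4% of the NKO list. The median log2 change of the 549 genes was 1.06 in WT cells, from which they were chosen, 1.16 in WT cells against vehicle replicate 1 alone, and 1.34 in NKO cells. A test of the difference between both responses called 74 genes (0.552%) more positive in NKO cells and 7 (0.0522%) more negative. Of the 74, 58 were among the 549, and 68 had more CPM in WT vehicle replicate 2 than in replicate 1. Without that library 46 genes were more positive, 36 of them from the 74. Igtp was among them, with log2 changes of 1.66 in WT and 2.79 in NKO cells (difference 1.12, edgeR adjusted p 6.64e-06), and Il10, an anti-inflammatory cytokine, with 0.03 and 2.41. These counts rested on single libraries. The 74 became 230 without WT vehicle replicate 1, 46 without WT vehicle replicate 2, 36 without WT IFNβ replicate 1, 40 without NKO IFNβ replicate 2, and 41 and 46 without NKO vehicle replicates 1 and 2. The 7 became 28 without WT vehicle replicate 1, 0 and 4 without WT IFNβ replicates 1 and 2, and 4 without NKO vehicle replicate 1.

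Poly I:C drove the interferon genes much higher than IFNβ did. The 2 poly I:C libraries were compared with the 2 IFNβ libraries directly, since both treatments share their vehicle libraries. Over all genes 2881 (21.5%) were higher with IFNβ and 2743 (20.5%) lower. Of the 549 genes that IFNβ raised, 384 were lower with IFNβ than with poly I:C, 69 were higher and 96 were not called. Of the 69 antiviral effectors 61 were lower with IFNβ, and so were all 21 GTPases and all 8 CXCR3 ligand and monocyte chemokine genes. Rsad2 stood at 209 and 262 CPM with IFNβ and 17405 and 17849 CPM with poly I:C, and Cxcl10 at 8.23 and 10.4 against 7298 and 7467 CPM. The gap was much smaller for Irf7 (992 and 1029 against 2835 and 2853 CPM) and Oas3 (909 and 961 against 1814 and 1895 CPM). Ifi27l2a, at 195 and 190 CPM with IFNβ and 193 and 182 CPM with poly I:C, was not called different, with a log2 difference of 0.04 ± 0.19. Siglec1 differed by 0.42, with 841 and 863 CPM under IFNβ and 627 and 646 CPM under poly I:C.

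Some genes moved apart under both ligands. Mcm2, raised by IFNβ to 37.0 and 39.7 CPM, stood at 2.74 and 2.76 CPM with poly I:C. Of the 47 cell cycle genes, 38 were higher with IFNβ than with poly I:C, beside 21.5% of all genes. Ppm1k, a mitochondrial phosphatase that fell to 4.34 and 4.99 CPM with IFNβ, stood at 160 and 160 CPM with poly I:C. Slc40a1 was lower still with poly I:C, at 4.29 and 3.01 CPM. Ccnd1 was close, at 357 and 384 CPM with IFNβ and 429 and 423 CPM with poly I:C.

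With IL4, which signals through STAT6, the antiviral effectors as a list stayed near vehicle. Their median log2 change with IL4 against vehicle was -0.38, and that of the interferon-inducible GTPases was 0.17. Against vehicle replicate 1 alone these medians were -0.08 and 1.05, so the GTPases lay above that library. In the direct comparison 1310 genes (9.77%) were higher with IFNβ and 1044 (7.79%) higher with IL4. Of the 549 genes, 424 were higher with IFNβ than with IL4, 14 lower and 111 not called, and 60 of the 69 antiviral effectors were higher. The 549 were chosen by their level in the same IFNβ libraries, which favours calls higher with IFNβ in this comparison. Ifit3 stood at 273 and 332 CPM with IFNβ and at 2.75 and 3.69 CPM with IL4, the latter below both vehicle libraries at 8.25 and 29.4 CPM. The genes of alternative activation separated the other way, with 15 of 17 lower with IFNβ, among them Mrc1 (185 and 167 CPM against 2139 and 2219 CPM) and Arg1, which was at 1 count or fewer with IFNβ. The inhibitory Fcgr2b was at 28.1 and 27.2 CPM with IFNβ and at 743 and 743 CPM with IL4. Cd40 and Flt1 rose with IFNβ and stood higher with IL4, Flt1 at 8.74 and 11.7 CPM against 120 and 109 CPM.

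**Figure D5:**
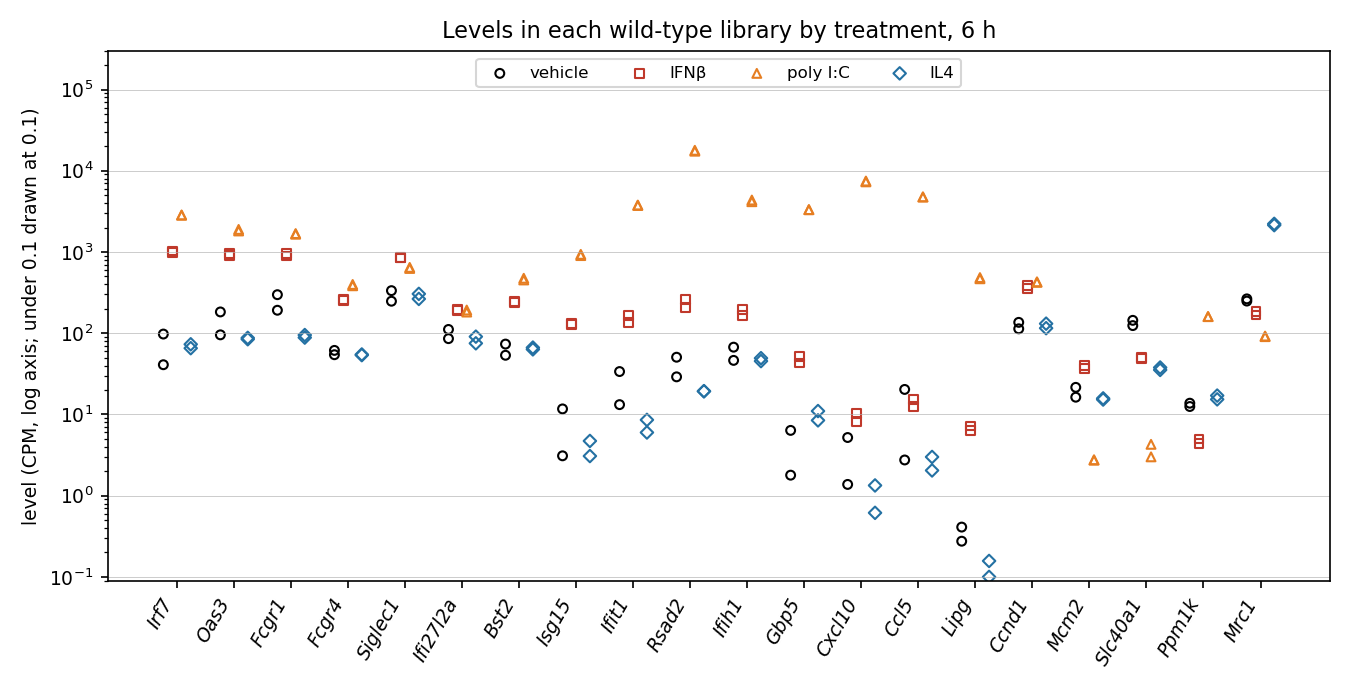
Level in CPM (vertical log axis) of 20 genes in WT BMDMs given vehicle, IFNβ, poly I:C or IL4 for 6 h, 1 symbol per library and 2 libraries per treatment. Poly I:C lies far above IFNβ for Rsad2, Ifih1, Cxcl10 and Ccl5 and within 2-fold of it for Fcgr4, Ifi27l2a and Ccnd1, and lies below it for Siglec1, Mcm2 and Slc40a1, while IL4 lies near or below vehicle for most of the interferon-stimulated genes drawn.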

How the data were processed

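The files held raw gene counts. The authors mapped the reads to mm10 with STAR and counted strand-specific reads within exons with HOMER, and the counts were deposited without normalisation, 1 column per library (tools as the submitters' processing notes and the study's methods name them, without versions). The table used holds 24 libraries in 12 groups of 2, and the other 3 count tables of the series were not used here. A gene was kept when at least 2 of the 24 libraries had enough counts (filterByExpr of edgeR). A gene high only under another treatment was thus tested too, even if low in the groups compared. Libraries were scaled by TMM, and 1 quasi-likelihood model was fitted over the 12 groups (edgeR 4.0.16, R 4.3.3). Contrasts were taken for each comparison, with Benjamini-Hochberg adjustment over 13407 genes. A call needed an adjusted p under 0.05 and a fold above 1.5. SEs are those implied by the test statistic. CPM used the TMM-adjusted library totals. The test was checked on simulated counts. The smallest two-sided p that exact permutation of 2 against 2 libraries allows is 0.333.

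The gene lists and the members were chosen with earlier results of these data known. Genes named were list members and the 15 largest changes in each direction at a mean of at least 5 CPM in either group. Kit and Clec9a, the runs of neighbouring genes and the genes named for a call that changed were chosen after their values were seen. Reads shared by near-identical genes were not resolved. Some genes are not reported here.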

Additional observations from a re-analysis of the deposited data

Results flagged for a closer look

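Among the genes named above, 22 differed between genotypes in their response to IFNβ, by the test of the difference itself (edgeR, NKO minus WT on the log2 scale, adjusted p under 0.05 and fold above 1.5). All 22 differences were positive, and 12 were also called without WT vehicle replicate 2. The largest were those of Ifit2 (2.64), Ifit1 (2.39), Il10 (2.38), Ifit3 (2.33), Gbp3 (1.82) and Rsad2 (1.52). The sensors Ifih1, Ddx58 and Dhx58 differed by 0.96, 0.92 and 0.84, and the HIN-200 genes Ifi204 and Ifi203 by 1.03 and 0.91. The GTPases Igtp, Gvin1 and Irgm1 differed by 1.12, 0.97 and 0.87. Cd40 differed by 1.31, Fcgr1 by 1.08, Tap1 by 0.66 and Il18bp by 0.61. The remaining genes were Ier3 (1.01), Ccr3 (0.87), Ppm1k (0.76) and Ccnd1 (0.64). Ier3, Ccr3 and Ppm1k were called lower with IFNβ in WT cells. For them a positive difference means a smaller fall, no fall or a rise in NKO cells. The part of WT vehicle replicate 2 in these differences was not tested beyond the counts without it. Groups of 2 libraries are too small for a test of single outlying libraries.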

How the results depend on the processing

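With an adjusted p alone, without the fold threshold, 1978 genes were higher and 1424 lower in WT cells and 2100 and 1440 in NKO cells, 2700 were higher and 2297 lower with IFNβ than with IL4, and 204 and 66 differed between genotypes. With a fold above 2 these counts were 301 and 85, 417 and 100, 701 and 574, and 34 and 2, and 1789 genes were higher with IFNβ than with poly I:C. The difference between genotypes also moved with DESeq2 (112 and 1) and, for the 74, with only the compared groups in the fit (25), and leaving out a library gave 36 to 230 and 0 to 28. Leaving out a library gave 498 to 622 genes higher and 237 to 357 lower in WT cells. DESeq2 called 526 higher and 252 lower. A stricter ISRE core was at 6.67% of the promoters of genes called higher, 0 of those called lower and 0.924% of all. The causes of these changes were not tested.

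With the replicate number as a block, 552 genes were higher and 312 lower in WT cells, and 85 and 7 differed between genotypes. Deviations of same-numbered libraries correlated at 0.012 to 0.049. Whether such libraries shared an animal or culture was not tested. No call of the 153 named genes changed under the replicate block.

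No call of a named gene turned into a call in the other direction, though Ccl5, not called with all libraries, was at -0.55 (edgeR adjusted p 0.000132) without WT vehicle replicate 1 and 2.33 without replicate 2. With only the compared groups in the fit, 26 of the 153 lost their call and Icosl (0.59) gained one, and those with too few counts in these groups were not tested. Calls were lost for Cfb, Clec9a, Cxcl10, Cxcl9, Ddx58, Eif2ak2, Fcgr1, Gbp2, Gbp5, Ifi204, Ifi44, Ifit1 and Ifit2. The others were Ifit3, Il1b, Irf7, Irgm1, Isg15, Mndal, Mx1, Nlrc5, Nxpe5, Oas3, Rsad2, Stat2 and Zbp1. Without a filter on low counts Cfb and Il1b lost theirs and Bak1, Bid and Icosl (each 0.59) gained one, and with DESeq2 Cfb lost its call and Saa3 (-2.77) gained one. Some calls rested on 1 library. Without WT IFNβ replicate 1, the calls of Cfb (1.36), Clec9a (1.14), Il1b (-1.64), Kit (1.15), Lcn2 (-1.79), Mcm7 (0.54) and Uhrf1 (0.56) were lost, and Cd274 (0.66), Icosl (0.62) and Mrc1 (-0.62) gained one. Without WT IFNβ replicate 2, those of Ccnb1 (-0.83), Ccr3 (-0.54), Cfb (1.29), Clec9a (0.86), Cx3cr1 (-0.54), Cxcl10 (1.32), Fas (-0.57), Il1b (-1.56) and Lcn2 (-1.26) were lost, and Socs1 (-1.28), Bak1 (0.61), Bid (0.61) and Casp4 (0.59) gained one. Without WT vehicle replicate 1, Ccl4 (0.55), Ccnb1 (-0.65), Cfb (0.49), Clec9a (0.76), Cxcl10 (0.83), Fas (-0.70), Gpr34 (-0.64), Gsdmd (0.56), Ticam1 (0.56) and Uhrf1 (0.58) lost theirs, and Il12b (-3.23), Mrc1 (-0.59), Saa3 (-3.66) and Socs3 (-1.70) gained one. Without WT vehicle replicate 2, Ccr3 (-0.57), Cx3cr1 (-0.51), Il1b (-0.40), Kit (1.07), Lcn2 (-0.97), Mcm7 (0.43) and Uhrf1 (0.77) lost theirs, and C3 (1.88), Ccl5 (2.33), Cd274 (0.66), Bak1 (0.62), Bid (0.68), Casp1 (0.68), Casp4 (0.94), H2-DMa (0.59), Icosl (0.63) and Tnfsf9 (1.14) gained one. All are log2 changes.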
